A study of Mus musculus with 21 samples.

Results

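The collagen genes are described here, taken as every gene whose symbol in the array's probe annotation reads Col, a number, the letter a and a number. The rule uses no measured value and found 44 of the 19752 genes that have a probe set with a single symbol. They divide into 11 fibrillar collagens, 6 network collagens of basement membranes, 3 network collagens of the hexagonal kind, 8 beaded-filament collagens, 9 FACITs (fibril-associated collagens with interrupted triple helices), 1 anchoring fibril collagen, 4 transmembrane collagens and 2 multiplexins. Testing was limited to genes brighter than the 40th percentile of an array on 2 or more arrays, which 39 of the 44 were. Col4a6, Col10a1, Col6a4, Col28a1 and Col19a1 lay below that level and are given by their values alone.

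Collagens are secreted chains that wind into triple helices. Fibrillar collagens pack into the fibrils that carry tension, network collagens form the sheets of basement membrane around each muscle fibre and capillary, beaded-filament collagen VI links cells and basement membrane to the fibrils, and FACITs coat the surface of fibrils. After a muscle is injured, fibroblasts and fibroadipogenic progenitors lay down a provisional matrix of these proteins in which new fibres form.

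The tissue was the whole tibialis anterior, a muscle of the lower leg, from male mice of the C57BL/6 strain at 8 weeks of age, with 1 Affymetrix Mouse Gene 1.0 ST array for each of 21 samples. Foxp3-DTR+ mice carry the receptor for diphtheria toxin in cells that express Foxp3, so that the toxin is meant to remove regulatory T cells, and Foxp3-DTR- mice do not. Cardiotoxin was injected at day 0, both genotypes were given diphtheria toxin on alternate days from then on, and muscle was collected 4 or 8 days after the injection. The titles call a muscle CTx or xINJ, while their remaining labels speak of cardiotoxin injury for both kinds, and xINJ is used here only as the name in the titles. The groups were DTR- CTx at day 4 (3 samples) and day 8 (3), DTR- xINJ at day 4 (3) and day 8 (3), DTR+ CTx at day 4 (2) and day 8 (3), DTR+ xINJ at day 4 (1) and day 8 (2), and a DTR+ control sample of day 0 (1). Whether replicates of a group are different animals is not stated, so the p-values reflect the spread among these samples, which can be technical. Nor is it stated whether CTx and xINJ muscles with the same number come from the same animal, and the fit treats them as unpaired.

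Median intensity per array lay between 133.05 and 159.53. The 10 skeletal muscle fibre markers were all tested, with 8 of them lower in DTR- CTx than xINJ muscle at day 4, and their summed level lay between 15.87 and 16.996 on the log2 scale on all arrays. Across all tested genes, xINJ arrays correlated with the day 0 array at 0.943 to 0.988 and CTx arrays at 0.770 to 0.950. DTR- CTx day 4 replicate 1 stood apart with the lowest of these correlations, 0.770, and with the lowest summed adipocyte marker level, 11.37. DTR- xINJ day 4 replicate 1 carries a time tag of day 8 against its title. Foxp3 passed the test in no contrast (log2 difference -0.18 between the genotypes in CTx muscle at day 8, adjusted p = 0.723). It lay below the filter level on every array of both DTR+ CTx groups and on the DTR+ xINJ array of day 4. The same held for every array of DTR- CTx muscle at day 4, so the array gives no check of the depletion. In whole muscle, fewer cells of a type and less RNA per cell cannot be told apart.

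Col1a1, Col1a2, Col3a1 and Col5a2 of the fibrillar type, Col8a1 of the hexagonal networks, Col6a1, Col6a2 and Col6a3 of the beaded filaments and the FACITs Col12a1 and Col14a1 were higher in CTx than in xINJ muscle in each of the 3 comparisons made. Log2 intensities were compared with limma, with Benjamini-Hochberg adjustment over all 13278 genes tested and a threshold of 0.05. In DTR- mice at day 4, 12 of 39 collagen genes (30.8%) were higher in CTx muscle and 2 (5.13%) were lower, where 26.1% and 20.5% of all genes were. In DTR- mice at day 8, 13 (33.3%) were higher and 0 lower, against 10.4% and 3.17% of all genes. In DTR+ mice at day 8, 14 (35.9%) were higher and 0 lower, against 16.7% and 8.51%. The share higher was thus close to the background at day 4 and above it in both comparisons at day 8. The median collagen gene differed by -0.09, 0.07 and 0.20 in these 3 comparisons, beside -0.01, 0.03 and 0.05 for all genes. Centring each array moved the median of all genes by -0.10 in DTR- mice at day 4 and by -0.15 in DTR+ mice at day 8, and it turned the split of the day 4 calls to 12 higher and 9 lower. With quantile normalization that split was 10 and 8. The differences of Col11a2, Col4a3, Col4a4, Col9a2, Col9a3 and Col20a1, which lay between -0.33 and -0.24 as deposited, passed as lower under both, beside Col6a6 and Col22a1. The shares of all genes that passed under these scalings are not given here. The splits therefore have no background beside them and are not read as a result about the collagens.

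Changes over time and with the genotype involved fewer members. In DTR- CTx muscle, 3 collagen genes (7.69%) were higher at day 8 than at day 4 and 4 (10.3%) were lower, against 11.6% and 18% of all genes. In DTR+ CTx muscle, 1 (2.56%) was higher and 4 (10.3%) were lower, against 2.84% and 8.24%. In DTR- xINJ muscle 0 of 39 passed with limma, where 0.00753% of all genes passed as higher and 0.0603% as lower, while 12 (30.8%) had an unadjusted p under 0.05, against 4.77% of all genes. There the 3 samples of day 8 lay below those of day 4 for 12 (30.8%, against 5.28% of all genes) and above them for 0 (2.12%). Between the genotypes, 0 collagen genes passed with limma in CTx muscle at day 4, where 0.00753% of all genes did, and 0 collagen genes had an unadjusted p under 0.05, against 2.06% of all genes. At day 8, 1 was higher and 1 lower in DTR+ CTx muscle (2.56% each, against 3.03% and 0.655% of all genes), and 0 were higher and 2 lower (5.13%) in DTR+ xINJ muscle (1.81% and 0.806%). In xINJ muscle the DTR+ samples of day 8 lay below the DTR- samples for 10 collagen genes (25.6%, against 14.7% of all genes) and above them for 0 (15.4%). The count over time in DTR- CTx muscle was 3 or 4 in place of 7 without DTR- CTx day 4 replicate 1 or 2 or day 8 replicate 3, and that in DTR+ CTx muscle was 2 in place of 5 without DTR+ CTx day 4 replicate 3. These comparisons share groups with each other, and each one's own values are given for the members below.

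**Figure D1:**
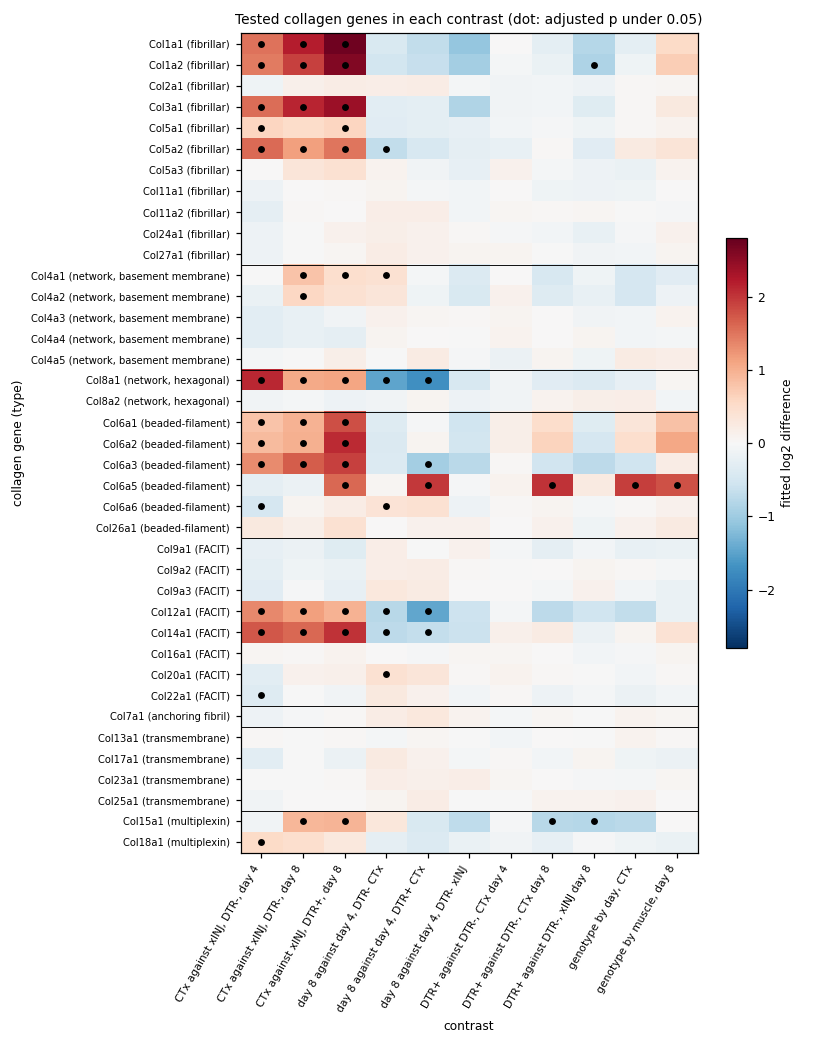
Fitted log2 difference (colour) of each of the 39 tested collagen genes (rows, by type) in the 11 contrasts planned (columns), with a dot where the limma adjusted p was under 0.05. Dots gather in the first 3 columns on the fibrillar genes Col1a1, Col1a2, Col3a1 and Col5a2, on Col8a1, on Col6a1, Col6a2 and Col6a3, and on Col12a1 and Col14a1, while Col6a5 has its 5 dots in the contrasts that involve DTR+ CTx muscle at day 8.

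Among the fibrillar collagens, Col1a1, Col1a2, Col3a1 and Col5a2 were higher in CTx than in xINJ muscle in all 3 comparisons, by 2.22-fold to 6.58-fold. Col1a1 (probe set 10380419) encodes the more abundant chain of type I collagen, the main collagen of tendon, fascia and scar. Levels are on the log2 scale. CTx samples of DTR- mice had Col1a1 levels of 12.30, 12.28 and 12.40 at day 4 and 12.33, 11.55 and 11.80 at day 8. Those of DTR+ mice had Col1a1 levels of 12.01 and 12.64 at day 4 and 12.11, 11.29 and 11.48 at day 8. The xINJ values of Col1a1 were 10.35, 10.998 and 11.03 (DTR-) and 10.56 (DTR+) at day 4, then 9.68, 9.72 and 9.71 (DTR-) and 8.77 and 9.05 (DTR+) at day 8, with 10.84 at day 0. Every CTx sample lay above every xINJ sample and above day 0, and the lowest values were those of DTR+ xINJ muscle at day 8. CTx against xINJ muscle differed by 1.53 ± 0.23 (SE, adjusted p = 2.57e-05) in DTR- mice at day 4, by 2.19 ± 0.23 (SE, adjusted p = 2.32e-06) at day 8 and by 2.72 ± 0.26 (SE, adjusted p = 5.56e-07) in DTR+ mice at day 8. The limma difference between the days missed the threshold in CTx muscle, at -0.43 ± 0.23 (SE, adjusted p = 0.182) in DTR- and -0.70 ± 0.26 (SE, adjusted p = 0.0931) in DTR+ mice.

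Col1a2 encodes the other chain of type I collagen. For Col1a2, DTR- CTx muscle gave 11.91, 11.79 and 11.85 at day 4 and 11.68, 11.05 and 11.27 at day 8, and DTR+ CTx muscle gave 11.54 and 12.04 at day 4 and 11.54, 10.78 and 11.09 at day 8. DTR- xINJ muscle had Col1a2 levels of 10.10, 10.55 and 10.51 at day 4 and 9.48, 9.47 and 9.33 at day 8, DTR+ xINJ muscle 10.08 at day 4 and 8.40 and 8.71 at day 8, and day 0 muscle 10.51. As for Col1a1, the CTx samples lay above all xINJ samples. The limma differences were 1.47 ± 0.20 (SE, adjusted p = 7.22e-06), 1.90 ± 0.20 (SE, adjusted p = 1.92e-06) and 2.58 ± 0.22 (SE, adjusted p = 1.89e-07) in DTR- mice at day 4, DTR- mice at day 8 and DTR+ mice at day 8. In xINJ muscle at day 8, the 2 DTR+ samples lay below the 3 DTR- samples, a difference of -0.87 ± 0.22 (SE, adjusted p = 0.0427). That call was lost without any 1 of the 5 samples compared, DTR+ replicates 1 and 2 and DTR- replicates 1 to 3 (adjusted p 0.0792 to 0.448), and also with centring (0.0509), quantile normalization (0.0627), no filter (0.0507) or an intensity trend (0.0512). In the same samples 0 of 6 tested tenocyte markers passed, with a summed level of 10.63 to 11.09 in DTR+ and 11.34 to 12.25 in DTR- mice. Of the fibroblast and fibroadipogenic progenitor markers 1 was lower in DTR+ mice, Lum (log2 difference -1.23 ± 0.23, SE, adjusted p = 0.0056), with summed levels of 13.07 to 13.12 in DTR+ and 13.02 to 13.30 in DTR- mice. Their part in the Col1a2 difference was not tested. Col1a1 differed there by -0.80 ± 0.26 (SE, adjusted p = 0.139), also with no overlap, and did not pass.

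The promoter window of Col1a2, 250 bases before to 50 after the start of the gene, is shown because the gene follows the same course over the groups as the other fibrillar genes that moved and Col1a1 has no entry in the sequence table. It is chr6:4505368-4505667 on the plus strand (RefSeq, GRCm38.p6). Capitals mark CCAAT boxes and GGGCGG boxes, the element bound by Sp1-type factors, on either strand.
Col1a2: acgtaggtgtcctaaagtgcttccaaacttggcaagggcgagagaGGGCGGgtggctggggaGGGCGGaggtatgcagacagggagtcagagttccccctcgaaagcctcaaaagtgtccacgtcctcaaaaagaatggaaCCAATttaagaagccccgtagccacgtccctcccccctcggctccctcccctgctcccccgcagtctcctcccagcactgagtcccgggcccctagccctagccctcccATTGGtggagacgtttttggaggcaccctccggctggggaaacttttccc
The window held 2 CCAAT boxes and 2 GGGCGG boxes. Of the 38 windows of 35 collagen genes, 60.5% held GGGCGG against 35.7% of all 32851 windows, 34.2% held CCAAT against 37.4%, and 13.2% held TATAAA against 13.6%. Motifs were searched on both strands, no match in the windows printed here overlaps another, and a match is a description of the sequence.

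Col3a1 encodes type III collagen, which forms thin, pliable fibrils with type I. At day 4, Col3a1 read 11.32, 10.78 and 10.78 in DTR- CTx muscle and 10.69 and 11.04 in DTR+ CTx muscle. At day 8, Col3a1 read 10.94, 10.36 and 10.69 in DTR- and 11.17, 10.18 and 10.45 in DTR+ CTx muscle. In xINJ muscle Col3a1 read 9.62, 9.30 and 9.25 (DTR-) and 9.04 (DTR+) at day 4, 8.90, 8.29 and 8.43 (DTR-) and 8.53 and 7.89 (DTR+) at day 8, and the day 0 sample read 9.76. The groups did not overlap between CTx and xINJ muscle. CTx muscle was higher by 1.57 ± 0.25 (SE, adjusted p = 4.07e-05) in DTR- mice at day 4, 2.13 ± 0.25 (SE, adjusted p = 7.15e-06) at day 8 and 2.39 ± 0.28 (SE, adjusted p = 4.88e-06) in DTR+ mice (limma). Over time in xINJ muscle of DTR- mice, Col3a1 differed by -0.85 ± 0.25 (SE, adjusted p = 0.419), Col1a1 by -1.09 ± 0.23 (SE, adjusted p = 0.105) and Col1a2 by -0.96 ± 0.20 (SE, adjusted p = 0.096), and in each the day 8 samples lay below those of day 4. None of these passed.

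Type V collagen starts and thins fibrils of type I. Its chain Col5a2 read 9.25, 8.74 and 9.02 in DTR- CTx muscle at day 4 and 8.51, 8.10 and 8.34 at day 8, and 8.63 and 8.96 at day 4 and 8.72, 8.34 and 7.99 at day 8 in DTR+ CTx muscle. In xINJ muscle Col5a2 read 7.53, 7.41 and 7.33 (DTR-) and 7.26 (DTR+) at day 4, 7.31, 7.09 and 7.10 (DTR-) and 6.68 and 7.01 (DTR+) at day 8, and the day 0 sample read 7.67. CTx samples were above xINJ samples throughout, by 1.58 ± 0.18 (SE, adjusted p = 1.09e-06) in DTR- mice at day 4, 1.15 ± 0.18 (SE, adjusted p = 0.000221) at day 8 and 1.51 ± 0.20 (SE, adjusted p = 2.57e-05) in DTR+ mice (limma). Col5a2 fell over time in DTR- CTx muscle (log2 difference -0.69 ± 0.18, SE, adjusted p = 0.00753), and in DTR+ mice the difference was -0.45 ± 0.20 (SE, adjusted p = 0.179). Col1a2 missed the threshold over the same days in DTR- CTx muscle, with no overlap, at -0.52 ± 0.20 (SE, adjusted p = 0.0557). It passed with the replicate number as a block (adjusted p = 0.0494), with only the groups compared (0.0416), without DTR- xINJ day 4 replicate 1 (0.0463) and without DTR- CTx day 8 replicate 1 (0.0223). For Col5a2, the difference between both time courses, that is, the genotype effect by day, was 0.24 ± 0.27 (SE, adjusted p = 0.887).

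Col5a1, the partner chain, differed less. CTx samples of DTR- mice had Col5a1 levels of 8.85, 8.66 and 8.60 at day 4 and 8.59, 8.22 and 8.33 at day 8. Those of DTR+ mice had Col5a1 levels of 8.34 and 8.92 at day 4 and 8.56, 8.16 and 8.34 at day 8. The xINJ values of Col5a1 were 8.03, 8.18 and 8.09 (DTR-) and 7.92 (DTR+) at day 4, then 7.66, 8.12 and 7.85 (DTR-) and 7.82 and 7.69 (DTR+) at day 8, with 8.16 at day 0. CTx exceeded xINJ muscle by 0.60 ± 0.17 (SE, adjusted p = 0.00564) in DTR- mice at day 4 and by 0.60 ± 0.19 (SE, adjusted p = 0.0225) in DTR+ mice at day 8, and by 0.50 ± 0.17 (SE, adjusted p = 0.0501) in DTR- mice at day 8, just short of the threshold (limma). The change of the CTx effect between the days in DTR- mice was -0.10 ± 0.23 (SE, adjusted p = 0.85). The day 4 call was lost with quantile normalization (adjusted p = 0.0589). It was also lost without both DTR- CTx day 4 replicate 1 and DTR- xINJ day 4 replicate 1 (0.0666). In DTR+ mice the call was lost without DTR+ CTx replicate 1 (adjusted p = 0.0826) or either xINJ sample, replicate 1 (0.0785) or replicate 2 (0.146). Centring each array (0.0764) or quantile normalization (0.116) lost it as well. The other fibrillar genes, the cartilage chains Col2a1, Col11a1 and Col11a2 and the minor chains Col5a3, Col24a1 and Col27a1, passed in none of the 11 contrasts. Their values stayed within 6.92 and 8.34 in all 21 samples, and Col5a3 showed the largest difference of the 6, 0.42 in CTx against xINJ muscle of DTR+ mice. Of the cartilage markers, 5 of 7 (Acan, Matn1, Matn3, Hapln1 and Cnmd) lay below the filter level on every array, while Sox9 and Comp were higher in CTx muscle of DTR- mice at day 4, by 1.11 and 0.59. Their part in the collagen differences was not tested.

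**Figure D2:**
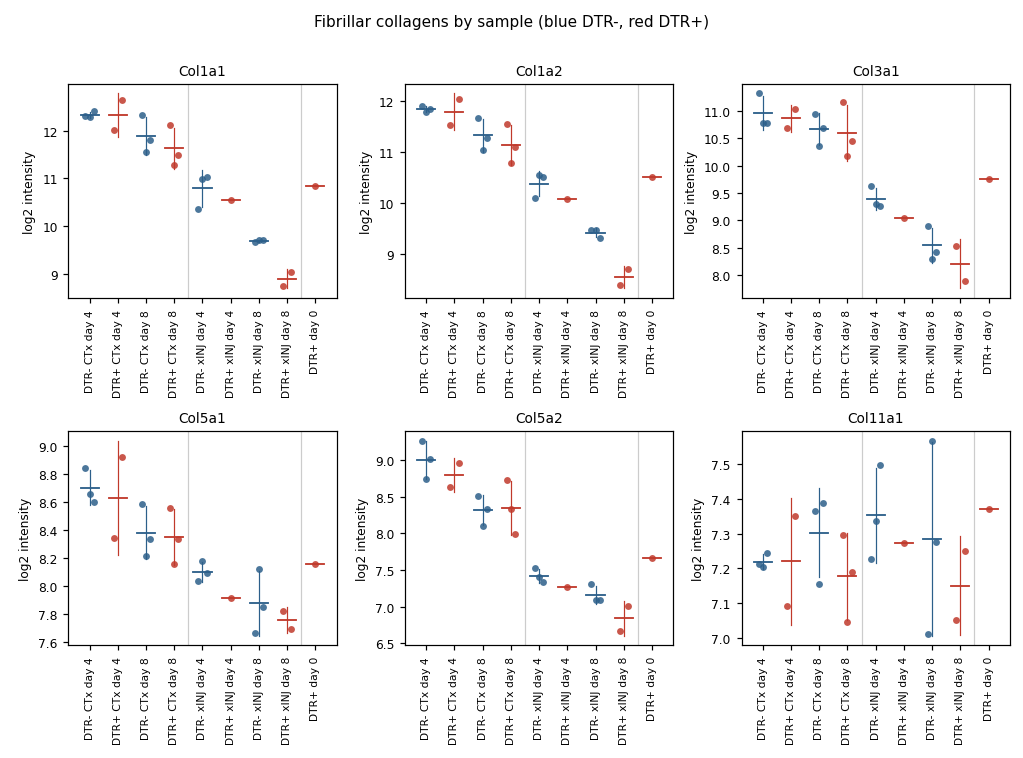
Log2 intensity of 6 fibrillar collagens by group, with 1 point per sample (blue DTR-, red DTR+), a horizontal bar at the mean and a vertical line of 1 SD where the group has over 1 sample. Col1a1, Col1a2, Col3a1 and Col5a2 lie higher in every CTx sample than in any xINJ sample, and the cartilage chain Col11a1 stays between 7.01 and 7.57.

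The basement membrane chains Col4a1 and Col4a2, which together form the common type IV network, were both higher in CTx than in xINJ muscle of DTR- mice at day 8, and neither passed at day 4. For Col4a1, DTR- CTx muscle gave 8.90, 8.94 and 9.05 at day 4 and 9.60, 9.22 and 9.32 at day 8, and DTR+ CTx muscle gave 8.69 and 9.27 at day 4 and 8.99, 8.80 and 8.98 at day 8. DTR- xINJ muscle had Col4a1 levels of 8.92, 8.92 and 9.08 at day 4 and 8.73, 8.55 and 8.49 at day 8, DTR+ xINJ muscle 8.73 at day 4 and 8.49 and 8.44 at day 8, and day 0 muscle 9.05. At day 4 the DTR- groups overlapped. At day 8 all 3 DTR- CTx samples were above all xINJ samples. CTx against xINJ muscle gave -0.01 ± 0.15 (SE, adjusted p = 0.953) in DTR- mice at day 4, 0.79 ± 0.15 (SE, adjusted p = 0.00109) at day 8 and 0.46 ± 0.17 (SE, adjusted p = 0.0481) in DTR+ mice at day 8 (limma). Col4a1 rose from day 4 to day 8 in DTR- CTx muscle by 0.42 ± 0.15 (SE, adjusted p = 0.0403), a call lost without DTR- CTx day 4 replicate 1 or 2 or day 8 replicate 1 or 3 (adjusted p 0.0677 to 0.192). The call in DTR+ mice was kept in 5 of 17 alternatives and lost without DTR+ CTx replicate 1 or 3 or either DTR+ xINJ sample (adjusted p 0.105 to 0.189).

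At day 4, Col4a2 read 8.44, 8.80 and 8.78 in DTR- CTx muscle and 8.45 and 9.12 in DTR+ CTx muscle. At day 8, Col4a2 read 9.19, 8.95 and 8.90 in DTR- and 8.64, 8.46 and 8.86 in DTR+ CTx muscle. In xINJ muscle Col4a2 read 8.71, 8.90 and 8.98 (DTR-) and 8.56 (DTR+) at day 4, 8.50, 8.36 and 8.45 (DTR-) and 8.25 and 8.20 (DTR+) at day 8, and the day 0 sample read 8.76. As for Col4a1, DTR- CTx muscle of day 8 was the highest group on average and DTR+ xINJ muscle of day 8 the lowest. CTx against xINJ muscle gave -0.19 ± 0.17 (SE, adjusted p = 0.356), 0.58 ± 0.17 (SE, adjusted p = 0.0245) and 0.43 ± 0.19 (SE, adjusted p = 0.0985) in the same 3 comparisons (limma). The call in DTR- mice at day 8 was lost without DTR- CTx replicate 1 (adjusted p = 0.115) or 2 (0.0502), or DTR- xINJ replicate 1 (0.0537), 2 (0.0736) or 3 (0.0623). The change of the CTx effect from day 4 to day 8 in DTR- mice, a contrast added after the values were seen, was 0.80 ± 0.21 (SE, adjusted p = 0.0171) for Col4a1 and 0.77 ± 0.24 (SE, adjusted p = 0.0376) for Col4a2, beside 5.13% of all genes higher in it and 7.34% lower. Without DTR- CTx day 8 replicate 1 the first was lost (adjusted p = 0.0566), and the second was lost without any 1 of 8 of the 12 samples (0.0542 to 0.102). Both hold a difference over time in DTR- xINJ muscle, -0.38 ± 0.15 (SE) for Col4a1 and -0.43 ± 0.17 (SE) for Col4a2. There the days did not overlap, and neither gene passed (limma adjusted p = 0.805 each). In DTR- CTx muscle Col4a2 differed over time by 0.34 ± 0.17 (SE, limma adjusted p = 0.132) and did not pass. Between the genotypes in CTx muscle at day 8, DTR+ samples lay below DTR- samples for both, with differences of -0.45 ± 0.15 (SE, adjusted p = 0.118) and -0.36 ± 0.17 (SE, adjusted p = 0.351), and neither passed.

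Col4a1 and Col4a2 lie head to head, and their promoter windows are shown because these genes moved together and their windows overlap. Both are from RefSeq, GRCm38.p6: Col4a1 at chr8:11312777-11313076 on the minus strand and Col4a2 at chr8:11312555-11312854 on the plus strand. Capitals mark the 78 bases that belong to both windows, read in opposite directions.
Col4a1: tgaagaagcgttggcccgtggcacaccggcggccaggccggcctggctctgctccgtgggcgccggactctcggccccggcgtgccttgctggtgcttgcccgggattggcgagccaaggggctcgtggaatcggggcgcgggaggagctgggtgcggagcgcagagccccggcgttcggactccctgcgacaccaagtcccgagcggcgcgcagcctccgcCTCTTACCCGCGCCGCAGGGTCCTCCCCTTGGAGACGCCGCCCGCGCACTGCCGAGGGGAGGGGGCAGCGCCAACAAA
Col4a2: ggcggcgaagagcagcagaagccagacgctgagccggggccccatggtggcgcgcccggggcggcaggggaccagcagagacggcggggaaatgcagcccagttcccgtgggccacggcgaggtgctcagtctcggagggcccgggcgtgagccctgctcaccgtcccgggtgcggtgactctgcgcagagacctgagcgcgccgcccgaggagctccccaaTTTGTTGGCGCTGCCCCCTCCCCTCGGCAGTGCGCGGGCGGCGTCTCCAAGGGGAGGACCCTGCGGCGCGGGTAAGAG
The shared stretch lies at the 3′ end of each window as printed and holds the start of both genes. Each window held 1 CCAAT box, Col4a1 held 1 GGGCGG box and Col4a2 held 3, and 1 site in the shared stretch counts for both.

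Col4a3, Col4a4 and Col4a5, the chains of the networks of kidney glomerulus, lung and other tissues, passed in no contrast and lay between 6.34 and 7.33. Col4a6 lay between 6.12 and 6.65 and was not tested. Endothelial cells, with muscle fibres, make basement membrane. Of 7 endothelial markers, 5 were lower in DTR- CTx than xINJ muscle at day 4 and 0 higher, and 0 of 7 passed at day 8. Their summed level was 11.28 to 11.97 in DTR- CTx and 12.07 to 12.68 in DTR- xINJ muscle at day 4, and 12.14 to 12.36 and 12.13 to 12.52 at day 8. Their part in the type IV result was not tested.

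Col8a1, a short network collagen of vessel walls and of remodelling matrix, had the largest rise of all collagen genes at day 4. CTx samples of DTR- mice had Col8a1 levels of 10.27, 9.82 and 9.84 at day 4 and 8.61, 8.14 and 8.72 at day 8. Those of DTR+ mice had Col8a1 levels of 9.69 and 10.09 at day 4 and 7.95, 7.97 and 8.58 at day 8. The xINJ values of Col8a1 were 7.95, 8.05 and 7.62 (DTR-) and 7.99 (DTR+) at day 4, then 7.30, 7.70 and 7.29 (DTR-) and 7.09 and 7.01 (DTR+) at day 8, with 7.99 at day 0. The day 4 CTx samples of both genotypes lay above all other samples. CTx exceeded xINJ muscle by 2.10 ± 0.20 (SE, adjusted p = 1.19e-07) in DTR- mice at day 4, 4.3-fold, and by 1.06 ± 0.20 (SE, adjusted p = 0.00134) at day 8 and 1.11 ± 0.23 (SE, adjusted p = 0.00125) in DTR+ mice (limma). From day 4 to day 8, Col8a1 in CTx muscle fell in DTR- (log2 difference -1.49 ± 0.20, SE, adjusted p = 2.57e-05) and in DTR+ mice (log2 difference -1.72 ± 0.23, SE, adjusted p = 8.6e-05). The day 8 difference between CTx and xINJ muscle was smaller than that of day 4 in DTR- mice in the added contrast (log2 difference -1.04 ± 0.29, SE, adjusted p = 0.0232). This last call was lost without DTR- CTx day 4 replicate 1 (adjusted p = 0.0656), DTR- CTx day 8 replicate 2 (0.0742), DTR- xINJ day 4 replicate 3 (0.0574) or DTR- xINJ day 8 replicate 2 (0.0683). Col8a2 lay between 6.32 and 6.89 and passed in no contrast, and Col10a1, the collagen of hypertrophic cartilage, lay between 6.04 and 6.56.

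**Figure D3:**
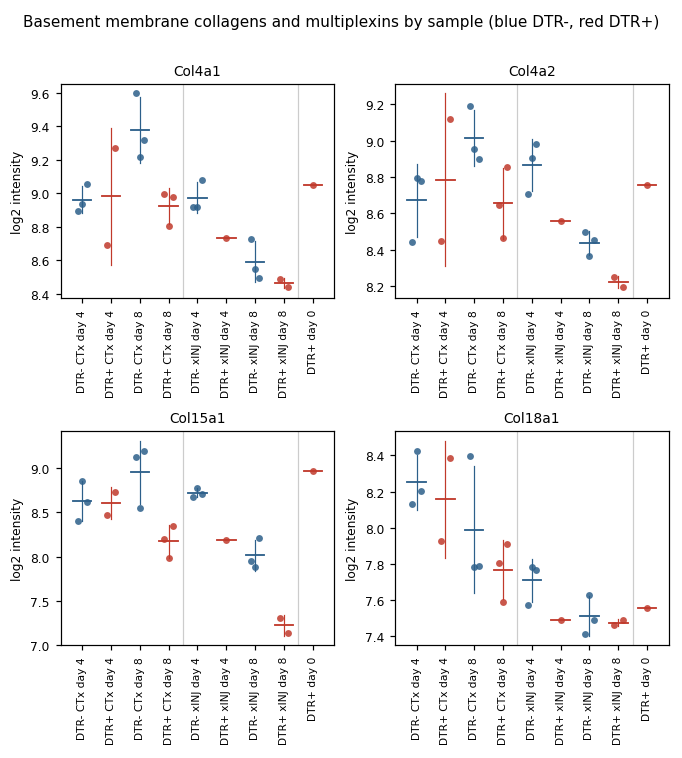
Log2 intensity of the basement membrane chains Col4a1 and Col4a2 and the multiplexins Col15a1 and Col18a1 by group, with 1 point per sample (blue DTR-, red DTR+), a bar at the mean and a line of 1 SD. Col4a1, Col4a2 and Col15a1 are highest on average in DTR- CTx muscle at day 8 among the CTx and xINJ groups and low in xINJ muscle at day 8.

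The 3 chains of the usual collagen VI molecule, Col6a1, Col6a2 and Col6a3, were higher in CTx than in xINJ muscle in all 3 comparisons. Collagen VI forms beaded filaments around muscle fibres, and loss of it causes muscular dystrophy. For Col6a1, DTR- CTx muscle gave 9.62, 10.04 and 9.83 at day 4 and 9.66, 9.33 and 9.42 at day 8, and DTR+ CTx muscle gave 9.75 and 10.24 at day 4 and 10.24, 9.82 and 9.85 at day 8. DTR- xINJ muscle had Col6a1 levels of 8.77, 9.16 and 9.19 at day 4 and 8.28, 8.65 and 8.54 at day 8, DTR+ xINJ muscle 8.77 at day 4 and 8.04 and 8.28 at day 8, and day 0 muscle 9.04. No CTx sample overlapped a xINJ sample. The CTx excess was 0.79 ± 0.18 (SE, adjusted p = 0.00119) and 0.98 ± 0.18 (SE, adjusted p = 0.000769) in DTR- mice at days 4 and 8 and 1.81 ± 0.20 (SE, adjusted p = 2.78e-06) in DTR+ mice at day 8 (limma).

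Col6a2 lies next to Col6a1 on the same chromosome. At day 4, Col6a2 read 9.82, 10.06 and 9.74 in DTR- CTx muscle and 9.72 and 10.34 in DTR+ CTx muscle. At day 8, Col6a2 read 9.74, 9.34 and 9.34 in DTR- and 10.44, 9.85 and 10.01 in DTR+ CTx muscle. In xINJ muscle Col6a2 read 8.82, 8.97 and 9.16 (DTR-) and 8.67 (DTR+) at day 4, 8.39, 8.69 and 8.35 (DTR-) and 7.87 and 8.16 (DTR+) at day 8, and the day 0 sample read 9.22. It followed Col6a1, with DTR+ CTx muscle at day 8 overlapping that at day 4. The CTx excess was 0.89 ± 0.19 (SE, adjusted p = 0.000708), 1.00 ± 0.19 (SE, adjusted p = 0.00115) and 2.08 ± 0.21 (SE, adjusted p = 1.09e-06) in the same order (limma). In CTx muscle at day 8 the DTR+ samples lay above the DTR- samples for both genes, with differences of 0.50 ± 0.18 (SE, adjusted p = 0.174) and 0.63 ± 0.19 (SE, adjusted p = 0.081), neither of which passed. In xINJ muscle of day 8 Col6a2 differed by -0.46 ± 0.21 (SE, adjusted p = 0.364). The genotype effect differed between CTx and xINJ muscle by 0.83 ± 0.27 (SE, adjusted p = 0.346) for Col6a1 and 1.09 ± 0.28 (SE, adjusted p = 0.162) for Col6a2, which did not pass either.

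Col6a3, the longest chain, read 10.42, 10.46 and 10.29 in DTR- CTx muscle at day 4 and 10.44, 9.75 and 9.81 at day 8. In DTR+ CTx muscle it read 10.11 and 10.74 at day 4 and 9.76, 9.46 and 9.19 at day 8. In xINJ muscle Col6a3 read 8.97, 9.11 and 9.10 (DTR-) and 8.57 (DTR+) at day 4, 8.38, 8.09 and 8.44 (DTR-) and 7.55 and 7.57 (DTR+) at day 8, and the day 0 sample read 9.22. The lowest CTx sample, DTR+ replicate 3 of day 8 at 9.19, lay just above the highest xINJ sample of day 4 at 9.11. The CTx excess was 1.33 ± 0.19 (SE, adjusted p = 1.55e-05), 1.70 ± 0.19 (SE, adjusted p = 5.14e-06) and 1.91 ± 0.22 (SE, adjusted p = 3.65e-06) (limma). Col6a3 fell in DTR+ CTx muscle from day 4 to day 8 (log2 difference -0.96 ± 0.22, SE, adjusted p = 0.00703), where Col6a1 and Col6a2 differed by -0.03 and 0.07. That call was lost without DTR+ CTx day 4 replicate 3 (adjusted p = 0.128). Between the genotypes at day 8, Col6a3 differed by -0.53 ± 0.19 (SE, adjusted p = 0.187) in CTx and by -0.74 ± 0.22 (SE, adjusted p = 0.0834) in xINJ muscle.

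Col6a5 encodes a chain that can take the place of Col6a3 in collagen VI, and its level separated DTR+ CTx muscle at day 8 from all other groups. CTx samples of DTR- mice had Col6a5 levels of 6.92, 6.90 and 6.97 at day 4 and 7.02, 6.79 and 7.14 at day 8. Those of DTR+ mice had Col6a5 levels of 6.72 and 7.32 at day 4 and 9.25, 8.98 and 8.78 at day 8. The xINJ values of Col6a5 were 7.18, 7.13 and 7.25 (DTR-) and 7.14 (DTR+) at day 4, then 6.92, 7.42 and 7.10 (DTR-) and 7.54 and 7.24 (DTR+) at day 8, with 7.18 at day 0. The 3 DTR+ CTx samples of day 8 lay between 8.78 and 9.25, and the other 18 samples between 6.72 and 7.54. Against DTR- CTx muscle of the same day the difference was 2.02 ± 0.17 (SE, adjusted p = 1.84e-06), 4.07-fold, the third smallest p of the 13278 genes (limma). Against DTR+ xINJ muscle of day 8 it was 1.62 ± 0.19 (SE, adjusted p = 5.7e-06), and against DTR+ CTx muscle of day 4 it was 1.98 ± 0.19 (SE, adjusted p = 4.24e-06). In DTR- mice CTx and xINJ muscle differed by -0.26 ± 0.17 (SE, adjusted p = 0.229) and -0.17 ± 0.17 (SE, adjusted p = 0.613). The genotype effect in CTx muscle was larger at day 8 than at day 4 by 1.93 ± 0.26 (SE, adjusted p = 0.00199) and larger than that in xINJ muscle by 1.78 ± 0.26 (SE, adjusted p = 0.00333), contrasts in which 0.557% and 0.105% of all genes passed as higher and 0.0301% and 0.128% as lower, and in which Col6a5 was the only collagen gene that passed. All of these calls rest on the same 3 samples. Each was kept without any 1 of them.

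A second probe set of Col6a5 was bright in the same 3 samples only. It passed the filter through those samples alone, so its values are a description and not separate support for the calls above. Probe set 10596403, of lower mean than probe set 10596409 used above, read 10.23, 9.69 and 8.85 in DTR+ CTx muscle at day 8 and 5.63 to 6.56 in the other 18 samples, which is below the filter level. The fitted difference from DTR- CTx muscle was 3.73 ± 0.25 (SE). Because the other group lay under the filter level, it is stated as a bound, at least 7.23-fold, with 7.54-fold against DTR+ xINJ muscle of day 8 and 7.37-fold against DTR+ CTx muscle of day 4. The bound sets the mean of the bright group against the mean filter level of the dim arrays.

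The promoter window of Col6a5, chr9:105960594-105960893 on the minus strand (RefSeq, GRCm38.p6), is shown as that of the gene with the largest genotype difference among collagens. Capitals mark a TTCNNNGAA match, the letters of a STAT site, and a GGGCGG box, on either strand.
Col6a5: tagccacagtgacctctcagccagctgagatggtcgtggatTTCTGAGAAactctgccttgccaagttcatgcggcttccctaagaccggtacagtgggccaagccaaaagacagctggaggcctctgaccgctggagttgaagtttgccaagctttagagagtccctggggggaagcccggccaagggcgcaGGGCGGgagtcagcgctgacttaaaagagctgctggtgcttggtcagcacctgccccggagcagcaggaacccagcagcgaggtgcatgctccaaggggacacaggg
The window held 1 TTCNNNGAA match and 1 GGGCGG box and no CCAAT box. TTCNNNGAA was found in 5.26% of the 38 collagen windows and in 8.3% of all windows.

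Col6a4 and Col6a6, the genes beside Col6a5 on the same chromosome, differed from it in their values over the groups. Col6a6 (probe set 10596383) read 8.12, 8.23 and 8.01 in DTR+ CTx muscle at day 8 and 7.98, 8.04 and 8.14 in DTR- CTx muscle, and the genotypes overlapped, with a limma difference of 0.07 ± 0.14 (SE, adjusted p = 0.932). At day 4, Col6a6 was lower in CTx than in xINJ muscle of DTR- mice, 7.52, 7.69 and 7.78 against 7.92, 8.19 and 8.26, with a difference of -0.46 ± 0.14 (SE, adjusted p = 0.0119). It rose to day 8 in DTR- CTx muscle by 0.39 ± 0.14 (SE, adjusted p = 0.0455). The first call was lost without DTR- CTx day 4 replicate 1 (adjusted p = 0.0577) or DTR- xINJ day 4 replicate 3 (0.0537), and the second without any 1 of DTR- CTx day 4 replicates 1 and 2 and day 8 replicates 1 to 3 (0.0688 to 0.166) or with no filter (0.0514). The second probe set of Col6a6, 10596394, read 7.06, 6.96 and 6.48 in DTR+ and 7.03, 6.99 and 6.92 in DTR- CTx muscle at day 8, and the genotypes overlapped (limma difference -0.15 ± 0.15, SE, adjusted p = 0.803). On that probe set Col6a6 was higher in CTx than in xINJ muscle of DTR+ mice at day 8 (log2 difference 0.56 ± 0.16, SE, adjusted p = 0.0163), and the CTx effect in DTR- mice was larger at day 8 than at day 4 by 0.80 ± 0.21 (SE, adjusted p = 0.0165). With probe set 10596383 these differences were 0.21 ± 0.16 (SE, adjusted p = 0.391) and 0.54 ± 0.20 (SE, adjusted p = 0.0902). Col6a4 lay between 6.15 and 6.79 in all samples. Col26a1 lay between 7.54 and 8.32, with its largest difference 0.42 in CTx against xINJ muscle of DTR+ mice, and Col28a1 between 5.90 and 6.60.

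Markers of other cells also differed between the genotypes in CTx muscle at day 8. Of 7 macrophage markers 3 were higher in DTR+ mice, Csf1r by 1.17, Mrc1 by 1.13 and Adgre1 by 0.76, with a summed level of 12.65 to 12.83 against 11.95 to 12.05. Of 5 T cell markers 4 were higher, among them Cd3g by 2.14, with a summed level of 9.76 to 10.54 against 8.93 to 9.13. Of 10 fibroblast and fibroadipogenic progenitor markers 1 was lower, Lum (log2 difference -1.21 ± 0.21, SE, adjusted p = 0.00142), with summed levels of 13.29 to 13.61 and 13.32 to 13.49. Of 6 tenocyte markers 1 was lower, with summed levels of 11.81 to 12.15 against 12.22 to 12.58. Of 7 mural markers 1 was lower, with 11.86 to 12.125 against 12.20 to 12.28. Of 5 muscle stem cell and myoblast markers 1 was higher, with 12.40 to 12.87 against 11.96 to 12.33. Endothelial markers are given with Col15a1. The part of all these cells in the Col6a5 difference was not tested.

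**Figure D4:**
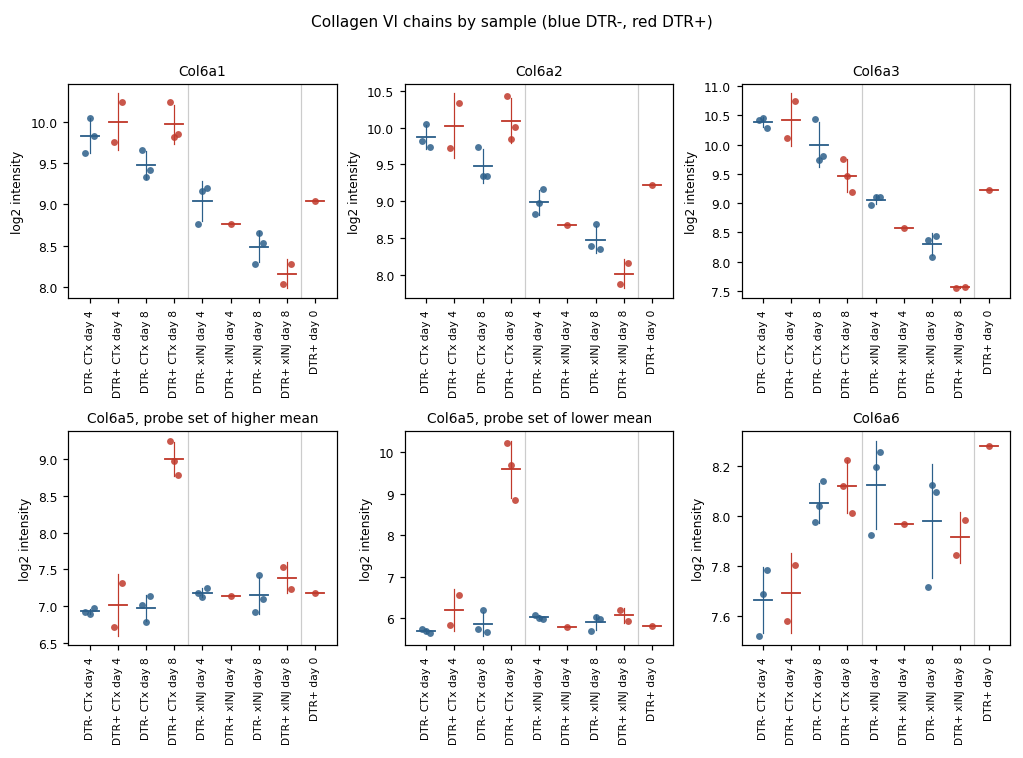
Log2 intensity of the collagen VI chains by group, with both probe sets of Col6a5, 1 point per sample (blue DTR-, red DTR+), a bar at the mean and a line of 1 SD. Col6a1, Col6a2 and Col6a3 lie lower in the xINJ than in the CTx groups, while Col6a5 is high in the 3 DTR+ CTx samples of day 8 on both probe sets. Probe set 10596409 reads 8.78 to 9.25 there and at most 7.54 elsewhere, and probe set 10596403 reads 8.85 to 10.23 there and at most 6.56 elsewhere.

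Of the 9 FACITs, Col12a1 and Col14a1 carried the CTx difference. Both coat type I fibrils, Col12a1 in tissue under load and Col14a1 in dense connective tissue. For Col14a1, DTR- CTx muscle gave 9.98, 9.94 and 9.84 at day 4 and 9.14, 9.09 and 9.31 at day 8, and DTR+ CTx muscle gave 9.84 and 10.31 at day 4 and 9.64, 9.23 and 9.37 at day 8. DTR- xINJ muscle had Col14a1 levels of 8.00, 8.13 and 8.41 at day 4 and 7.42, 7.64 and 7.66 at day 8, DTR+ xINJ muscle 8.18 at day 4 and 7.61 and 7.19 at day 8, and day 0 muscle 8.31. The CTx samples lay above the xINJ samples with no overlap. CTx muscle exceeded xINJ muscle by 1.74 ± 0.16 (SE, adjusted p = 7.12e-08), 1.61 ± 0.16 (SE, adjusted p = 1.21e-06) and 2.01 ± 0.18 (SE, adjusted p = 3.07e-07) for DTR- day 4, DTR- day 8 and DTR+ day 8 samples (limma). From day 4 to day 8, Col14a1 fell in CTx muscle in DTR- (log2 difference -0.74 ± 0.16, SE, adjusted p = 0.00169) and in DTR+ mice (log2 difference -0.66 ± 0.18, SE, adjusted p = 0.0225). The second of these was lost without DTR+ CTx day 4 replicate 3 (adjusted p = 0.243) or day 8 replicate 2 (0.0873), with quantile normalization (0.0642) or with only the groups compared (0.111).

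At day 4, Col12a1 read 9.01, 9.65 and 9.26 in DTR- CTx muscle and 8.97 and 9.53 in DTR+ CTx muscle. At day 8, Col12a1 read 9.17, 8.31 and 8.11 in DTR- and 8.05, 7.63 and 7.68 in DTR+ CTx muscle. In xINJ muscle Col12a1 read 7.40, 8.49 and 8.01 (DTR-) and 7.63 (DTR+) at day 4, 7.35, 7.49 and 7.29 (DTR-) and 6.64 and 6.996 (DTR+) at day 8, and the day 0 sample read 7.91. In each comparison the CTx samples lay above the xINJ samples, although the xINJ samples of day 4 spread from 7.40 to 8.49. CTx muscle was higher by 1.34 ± 0.27 (SE, adjusted p = 0.000502), 1.15 ± 0.27 (SE, adjusted p = 0.00725) and 0.97 ± 0.31 (SE, adjusted p = 0.0248) in the same comparisons (limma). At day 8 the call was lost in DTR- mice without DTR- CTx replicate 1 (adjusted p = 0.055), and in DTR+ mice without DTR+ CTx replicate 1 (0.0812) or xINJ replicate 1 (0.209) or 2 (0.0525), or with each array centred on its median (0.0559). Over time in CTx muscle, Col12a1 fell in DTR+ (log2 difference -1.46 ± 0.31, SE, adjusted p = 0.00417) and in DTR- mice (log2 difference -0.78 ± 0.27, SE, adjusted p = 0.0378). The first was lost without DTR+ CTx day 4 replicate 3 (0.0662), and the second without DTR- CTx day 4 replicate 2 (0.157) or 3 (0.0664) or day 8 replicate 2 (0.135) or 3 (0.182), with quantile normalization (0.0684) or with only the groups compared (0.0558). In CTx muscle of day 8 all DTR+ samples lay below all DTR- samples, a difference of -0.74 ± 0.27 (SE, adjusted p = 0.194) that did not pass.

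Col22a1, a collagen of the muscle-tendon junction, was lower in CTx than in xINJ muscle of DTR- mice at day 4. It read 7.01, 7.05 and 7.26 in those CTx samples and 7.45, 7.46 and 7.52 in the xINJ samples, a difference of -0.37 ± 0.14 (SE, adjusted p = 0.0384) (limma). In the other CTx groups it read 6.98 and 7.30 (DTR+, day 4), 7.46, 7.28 and 7.42 (DTR-, day 8) and 7.31, 7.10 and 7.35 (DTR+, day 8). In the other xINJ groups it read 7.48 (DTR+, day 4), 7.14, 7.62 and 7.46 (DTR-, day 8) and 7.43 and 7.29 (DTR+, day 8), and 7.53 at day 0. The values of day 8 overlapped between CTx and xINJ muscle. The day 4 call was kept in 8 of 17 alternatives and lost without any 1 of DTR- CTx replicates 1 and 2 and DTR- xINJ replicates 1 to 3 (adjusted p 0.0637 to 0.119). Col20a1 passed once, higher at day 8 than at day 4 in DTR- CTx muscle by 0.43 ± 0.13 (SE, adjusted p = 0.016). That call was lost without DTR- CTx day 4 replicate 1 (0.0536) or 2 (0.0768) or day 8 replicate 2 (0.071).

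Col9a1, Col9a2, Col9a3 and Col16a1, the first 3 of them chains of cartilage collagen IX, passed in no contrast, with values between 6.20 and 8.35. Col19a1, a collagen of muscle precursors and some nerve cells, was not tested. It read 6.38, 6.27 and 6.67 at day 4 and 6.63, 6.08 and 6.52 at day 8 in DTR- CTx muscle, and 6.31 and 6.37 at day 4 and 6.76, 6.57 and 6.52 at day 8 in DTR+ CTx muscle. In xINJ muscle it read 6.499, 6.21 and 6.35 at day 4 and 6.15, 6.40 and 6.29 at day 8 in DTR- mice, 6.26 at day 4 and 6.58 and 6.18 at day 8 in DTR+ mice, and 6.26 at day 0. Only 1 array was above the filter level.

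**Figure D5:**
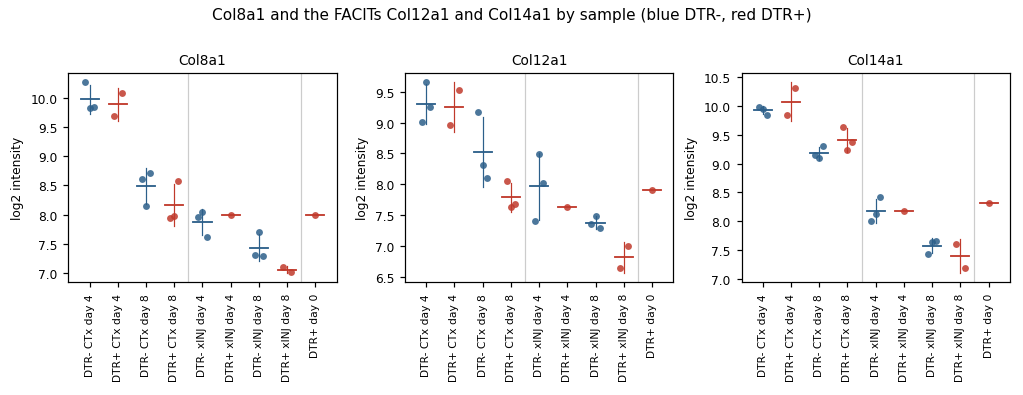
Log2 intensity of the network collagen Col8a1 and the FACITs Col12a1 and Col14a1 by group, with 1 point per sample (blue DTR-, red DTR+), a bar at the mean and a line of 1 SD. All 3 are highest on average in CTx muscle at day 4, Col8a1 between 9.69 and 10.27 there and between 7.95 and 8.72 in CTx muscle at day 8.

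Col15a1, a multiplexin that anchors the basement membrane of muscle fibres and capillaries to the matrix, was the collagen gene that was lower in DTR+ than in DTR- mice in both muscles at day 8. CTx samples of DTR- mice had Col15a1 levels of 8.41, 8.85 and 8.62 at day 4 and 9.13, 8.55 and 9.19 at day 8. Those of DTR+ mice had Col15a1 levels of 8.47 and 8.73 at day 4 and 8.19, 7.98 and 8.35 at day 8. The xINJ values of Col15a1 were 8.68, 8.78 and 8.71 (DTR-) and 8.19 (DTR+) at day 4, then 7.95, 7.89 and 8.21 (DTR-) and 7.31 and 7.14 (DTR+) at day 8, with 8.97 at day 0. In each muscle the DTR+ samples of day 8 lay below all DTR- samples of that day, while the CTx groups of day 4 overlapped. Col15a1 was lower in DTR+ mice in CTx (log2 difference -0.78 ± 0.17, SE, adjusted p = 0.0114) and in xINJ muscle (log2 difference -0.79 ± 0.19, SE, adjusted p = 0.0305). The size of the genotype effect differed between these muscles by 0.01 ± 0.26 (SE, adjusted p = 1), with a 95% interval of -0.53 to 0.55, and between the days in CTx muscle by -0.76 ± 0.26 (SE, adjusted p = 0.224). In CTx muscle the call was lost without DTR+ replicate 2 (adjusted p = 0.0689) or DTR- replicate 1 (0.0829) or 3 (0.077), and when only the 2 groups compared were fitted (0.0529). In xINJ muscle it was lost without DTR+ replicate 1 (0.156) or 2 (0.259) or DTR- replicate 1 (0.0713) or 3 (0.169).

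CTx against xINJ muscle gave -0.09 ± 0.17 (SE, adjusted p = 0.68) for Col15a1 in DTR- mice at day 4, 0.94 ± 0.17 (SE, adjusted p = 0.000813) at day 8 and 0.95 ± 0.19 (SE, adjusted p = 0.00106) in DTR+ mice at day 8. In the added contrast of the CTx effect by day in DTR- mice, the difference was 1.03 ± 0.24 (SE, adjusted p = 0.0093), the same direction as for Col4a1 and Col4a2. Over these days the mean of DTR- xINJ muscle went from 8.719 to 8.015. In DTR- CTx muscle Col15a1 differed by 0.33 ± 0.17 (SE, limma adjusted p = 0.166), which did not pass. The mean of DTR- CTx muscle at day 8, 8.955, was close to the day 0 sample, 8.972. Endothelial markers, a cell type that makes Col15a1, were lower in DTR+ CTx muscle at day 8 for 2 of 7, Cdh5 (log2 difference -0.88 ± 0.24, SE, adjusted p = 0.0437) and Kdr (log2 difference -0.93 ± 0.22, SE, adjusted p = 0.0213), with a summed level of 11.46 to 11.68 against 12.14 to 12.36 in DTR- mice. In xINJ muscle 0 of 7 passed, and the levels were 11.75 to 12.31 against 12.13 to 12.52. Their part in the Col15a1 difference was not tested.

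Col18a1, the multiplexin from which endostatin is cut, read 8.13, 8.42 and 8.20 in DTR- CTx muscle at day 4 and 7.57, 7.79 and 7.77 in xINJ muscle. It was higher in CTx muscle there by 0.54 ± 0.17 (SE, adjusted p = 0.0125) (limma), a call lost without DTR- CTx day 4 replicate 2 (adjusted p = 0.0582) and with quantile normalization (0.0788). At day 8 the CTx samples were also above the xINJ samples, 8.39, 7.79 and 7.79 against 7.42, 7.63 and 7.49 in DTR- mice and 7.80, 7.59 and 7.91 against 7.46 and 7.49 in DTR+ mice. These differences of 0.48 and 0.29 did not pass.

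The anchoring fibril chain Col7a1, which ties skin to its basement membrane, and the transmembrane collagens Col13a1, Col17a1, Col23a1 and Col25a1 passed in no contrast. Col7a1 read 7.58, 7.39 and 7.73 at day 4 and 7.89, 7.56 and 7.89 at day 8 in DTR- CTx muscle and 7.35 and 7.70 at day 4 and 8.05, 7.66 and 7.78 at day 8 in DTR+ CTx muscle. In xINJ muscle it read 7.77, 7.64 and 7.74 at day 4 and 7.57, 8.02 and 7.81 at day 8 in DTR- mice, 7.73 at day 4 and 7.83 and 7.74 at day 8 in DTR+ mice, and 7.81 at day 0, within the range of the CTx samples. Col25a1, needed for motor nerves to enter muscle, read 6.75, 6.83 and 6.94 at day 4 and 7.07, 6.89 and 6.82 at day 8 in DTR- CTx muscle, 6.81 and 6.84 at day 4 and 7.17, 6.79 and 7.11 at day 8 in DTR+ CTx muscle. In xINJ muscle Col25a1 read 7.09, 6.84 and 6.86 at day 4 and 6.58, 7.22 and 6.98 at day 8 in DTR- mice, 7.17 at day 4 and 7.14 and 6.91 at day 8 in DTR+ mice, and 7.07 at day 0, so that the groups overlapped. Col23a1, the transmembrane member of highest mean, read 7.71, 7.29 and 7.57 at day 4 and 7.88, 7.63 and 7.65 at day 8 in DTR- CTx muscle and 7.39 and 7.78 at day 4 and 7.86, 7.82 and 7.52 at day 8 in DTR+ CTx muscle. Its xINJ samples read 7.57, 7.45 and 7.59 at day 4 and 7.27, 8.21 and 7.72 at day 8 in DTR- mice, 7.76 at day 4 and 7.64 and 7.75 at day 8 in DTR+ mice, and 7.41 at day 0. Col13a1 lay between 7.05 and 7.68 and Col17a1 between 6.25 and 6.82. Across all types, 19 of the 39 tested members (48.7%) passed in at least 1 of the 11 contrasts, where 55.2% of all tested genes did, and the 20 that passed in none had no difference above 0.424 in size.

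The genes that modify, fold, export, trim and cross-link collagen were listed separately, with the receptors that bind or take it up. Of the 51 listed, 47 were measured and 42 tested. Fkbp10, Adamts2, Loxl2 and Gp6 have no probe set with a single symbol, and Mia2, Tll1, Tll2, Mep1a and Mep1b lay below the filter level. In DTR- mice at day 4, 29 of 42 were higher and 4 lower in CTx than in xINJ muscle, with a median log2 difference of 0.79 against -0.01 for all genes. Of all genes, 26.1% were higher and 20.5% lower there. At day 8 the counts among the 42 were 18 higher and 1 lower in DTR- mice and 22 higher and 2 lower in DTR+ mice, with medians of 0.44 and 0.61. Of all genes, 10.4% were higher and 3.17% lower in DTR- mice, and 16.7% and 8.51% in DTR+ mice.

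P4ha3, a prolyl hydroxylase subunit whose product stabilises the triple helix, had the smallest p at day 4, 2.82 ± 0.20 (SE, adjusted p = 1.63e-09). Lox, which cross-links collagen, was higher there by 2.60 ± 0.22 (SE, adjusted p = 2.06e-08), the procollagen peptidase Adamts14 by 1.91 ± 0.16 (SE, adjusted p = 2.55e-08), and Lair1, an inhibitory collagen receptor of immune cells, by 2.58 ± 0.22 (SE, adjusted p = 2.64e-08) (limma). At day 8 the 4 genes of smallest p in DTR- mice were the collagen-binding protein Sparc, 1.18, P4ha3, 1.37, the C-propeptidase Bmp1, 0.79, and its enhancer Pcolce, 1.15. In DTR+ mice they were Bmp1, 1.501, Sparc, 1.46, Pcolce, 1.61, and Loxl3, 1.51. All 4 cross-linking enzymes tested, Lox, Loxl1, Loxl3 and Loxl4, were higher in CTx muscle at day 4, by 0.59 to 2.60. Those lower at day 4 were Colgalt2, -0.83, the export factor Mia3, -0.83, the collagen-binding integrin chain Itga1, -0.74, and Pcolce2, -0.64.

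From day 4 to day 8 many of these genes fell. In DTR- CTx muscle 27 of 42 fell and 1 rose, Tmem38b, and in DTR+ CTx muscle 20 fell and 0 rose, beside 4 of 39 collagens that fell in each. Of all genes, 18% fell and 11.6% rose in DTR- CTx muscle, and 8.24% fell and 2.84% rose in DTR+ CTx muscle. The difference between these genes and the collagens was not tested. P4ha3 fell in DTR- (log2 difference -2.03 ± 0.20, SE, adjusted p = 8.76e-07) and in DTR+ mice (log2 difference -2.13 ± 0.22, SE, adjusted p = 7.91e-06). Pdia3, -1.31, Lox, -1.77, and Adamts14, -1.22, followed in DTR- mice, and Mrc2, a receptor for collagen uptake, -1.24, Loxl1, -1.34, and Ppib, -1.25, in DTR+ mice. In DTR- xINJ muscle Sparc alone passed, -0.76 ± 0.14 (SE, adjusted p = 0.0444), where 0.0603% of all genes passed as lower.

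With the genotype, 0 of the 42 passed in CTx muscle at day 4, where 0.00753% of all genes did (limma). At day 8, Lair1 and Lox were higher in DTR+ CTx muscle, by 0.96 ± 0.22 (SE, adjusted p = 0.0168) and 0.92 ± 0.22 (SE, adjusted p = 0.0212), and Tmem38b, an ion channel of the endoplasmic reticulum, was higher in DTR+ xINJ muscle by 0.73 ± 0.18 (SE, adjusted p = 0.0353). Of all genes, 3.03% passed as higher in that CTx comparison and 1.81% in that of xINJ muscle. Among macrophage markers, cells in which Lair1 is also found, 3 of 7 were higher in the same CTx comparison, as given with Col6a5, and their part in the Lair1 difference was not tested.

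Cell type markers moved beside the CTx differences of the collagens as well. Of 10 fibroblast and fibroadipogenic progenitor markers, 3 were higher and 1 lower in DTR- CTx than xINJ muscle at day 4, 3 higher at day 8, and 6 higher in DTR+ mice at day 8. Pdgfra was higher by 0.73, 0.63 and 1.23, Lum by 1.05, 1.86 and 1.88, and Mfap5 by 1.31, 1.39 and 1.59 in the order used above. The median of all 10 markers was 0.003, 0.17 and 0.54 in that order, beside -0.01, 0.03 and 0.05 for all genes. Their summed level at day 4 was 13.54 to 13.84 in DTR- CTx and 13.49 to 13.54 in DTR- xINJ muscle, and it was 13.74 at day 0. Of 6 tested tenocyte markers, 2 were higher at day 4, Scx and Thbs4, 3 at day 8 in DTR- mice and 2 at day 8 in DTR+ mice. Mkx lay below the filter level on every array of all but 1 group. The median of the 6 was -0.24, 0.80 and 0.67 in that order. At day 4 the summed level of all 7 listed overlapped, 12.51 to 12.76 in DTR- CTx and 11.55 to 12.80 in DTR- xINJ muscle. Macrophage markers were higher in CTx muscle for 7 of 7 at day 4 and for 6 of 7 in each genotype at day 8, with summed levels of 11.95 to 14.05 in CTx and 9.55 to 11.16 in xINJ muscle. Of 5 muscle stem cell and myoblast markers, 5 were higher at day 4 in DTR- CTx muscle, with a summed level of 13.45 to 13.84 against 10.61 to 10.76. At day 8, 3 were higher in DTR- mice (11.96 to 12.33 against 10.24 to 10.34) and 4 in DTR+ mice (12.40 to 12.87 against 9.81 to 10.20). Of 5 T cell markers 1, Cd4, was higher in DTR- CTx muscle on each day, and 4 in DTR+ CTx muscle at day 8, with summed levels there of 9.76 to 10.54 against 9.01 to 9.16. Of 7 mural markers, 2 were higher and 3 lower in DTR- CTx muscle at day 4, with summed levels of 12.945 to 13.29 against 12.40 to 12.51. At day 8, 2 were higher and 2 lower in DTR- mice, and 2 higher and 3 lower in DTR+ mice. The part of these cells in the collagen differences was not tested.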

How the data were processed

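Whole tibialis anterior muscle was measured in 21 samples, 1 array each. The deposited values are linear intensity values of 24922 probe sets, which the authors made with Affymetrix Power Tools and RMA (background correction, quantile normalization and probe summary), per the submitters' processing notes, with versions not given in the sources used here. Log2 was taken here of the intensities deposited by the authors. A further filter or scaling can move dim genes, and precision is limited by how many arrays a group has.

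The platform annotation lists 22824 probe sets, leaves 2098 unlisted and gives several symbols to 1399. Those with 1 symbol, 21425, stand for 19752 genes, and for 921 genes with several probe sets the one of highest mean was used. Genes above the 40th percentile of the array (log2 6.62 to 6.84) on at least 2 arrays were tested, 13278 in all. One limma fit (version 3.58.1, R 4.3.3) over all samples had a mean per title group, with 12 residual and 6.56 prior degrees of freedom, two-sided tests and Benjamini-Hochberg adjustment at 0.05. Since an exact permutation test of 3 against 3 samples cannot go below 0.1, none was used. There were 11 planned contrasts, and 1 (CTx effect by day in DTR- mice) was added after values were seen. The members, the collagen types, the list of collagen-making genes and the markers were chosen with earlier results of these data known.

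Sample values are given for members that passed in at least 4 contrasts or in a genotype contrast, for the member of highest mean of each type and for a written list. Of the collagen-making genes, up to 4 of smallest p that passed are named per contrast, and others named were chosen after their values were seen. On simulated data with 200 of 13278 genes changed, limma recovered 80% of log2 changes of 1 in the CTx against xINJ comparison of DTR- mice at day 4 and 69.5% in the genotype comparison of xINJ muscle at day 8, and 99.5% and 99% of changes of 2. The simulated noise was normal and independent between genes and samples. Far more genes passed in the real day 4 comparison, 3472 higher and 2718 lower. The adjustment depends on that number, so these rates hold for the simulation only. Promoter windows run from 250 bases before to 50 after a RefSeq start. Alternatives changed the scaling, the filter, the variance model, the samples fitted and the probe set, or left out samples.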

Additional observations from a re-analysis of the deposited data

Results flagged for a closer look

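In 6 cases the effect of a contrast differed between groups by a limma test of the difference itself. For Col6a5, the genotype effect in CTx muscle differed between the days by 1.933 and between CTx and xINJ muscle at day 8 by 1.784, on the log2 scale. The other 4 come from the contrast of the CTx effect by day in DTR- mice, which was added after the values were seen. There the difference between day 8 and day 4 was 0.801 for Col4a1, 0.77 for Col4a2, 1.032 for Col15a1 and -1.044 for Col8a1. For Col4a1, Col4a2 and Col15a1 it holds lower xINJ means at day 8 besides higher CTx means. The 2 results for Col6a5 rest on the same 3 DTR+ CTx samples of day 8 and kept their call in 23 of 23 alternatives each. These alternatives include the second probe set, which passed the filter only through those samples.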

How the results depend on the processing

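Over 63 calls of a collagen gene in a contrast, 1145 alternative values were computed, of which 1040 kept the call, 105 kept the direction only and 0 reversed. The alternatives that change the probe set kept all 63 calls. Among the collagens they alter the values of Col6a5 and Col6a6 only, so they could hardly move a call of the other members. Leaving out 1 replicate at a time gave 12 to 15 collagen genes called in CTx against xINJ muscle of DTR- mice at day 4, 11 to 13 at day 8 and 11 to 15 in DTR+ mice. It gave 3 to 8 and 2 to 7 for day 8 against day 4 in DTR- and DTR+ CTx muscle, and 0 in DTR- xINJ muscle. For the genotype it gave 0 in CTx muscle at day 4, 1 to 2 at day 8, 0 to 1 in xINJ muscle, and 1 for each of its changes by day and by muscle. The CTx effect by day gave 2 to 4.

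Without both DTR- CTx day 4 replicate 1 and DTR- xINJ day 4 replicate 1, 4 genes in place of 7 were called over time in DTR- CTx muscle and 1 in place of 4 for the CTx effect by day. For the genotype in CTx muscle at day 8, fitting only the groups compared gave 1 in place of 2. In xINJ muscle at day 8, in place of 2, there was 1 with centring, with quantile normalization, with no filter and with an intensity trend, and there were 4 with only the groups compared and 4 with DTR- xINJ day 4 replicate 1 placed at day 8. The cause of these shifts was not tested.

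With the replicate number as a block (replicate block), all 63 calls were kept, and 1 gene in place of 0 was called for day 8 against day 4 in DTR- xINJ muscle, Col3a1 (log2 difference -0.85, limma adjusted p = 0.0112). The other genes gained with the block were Col5a1 (adjusted p = 0.0412) in DTR- CTx against xINJ muscle at day 8, Col5a3 (0.041) in the same comparison of DTR+ mice, Col1a2 (0.0494) over time in DTR- and Col6a6 (0.0226) in DTR+ CTx muscle, and Col3a1 (0.0417) and Col6a6 (0.0365) for the CTx effect by day. Same-numbered samples deviated together with a median correlation of 0.19 (-0.448 to 0.712), against -0.081 for other pairs. Of the same-numbered pairs 33 of 51 lay over 0.1, and of the other pairs 22 of 103. The deviations within a group sum to 0, so these pairs are not independent of each other and cannot decide whether the numbers pair the samples. The labels do not state what a shared number means, so the numbers were not used as pairs in the main fit. What same-numbered samples share was not tested.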
